A study of Mus musculus with 7 samples.

Results

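The 9 genes described here are regulators of skeletal muscle formation, namely Pax3, Pax7, Myf5, Myf6, Myod1, Myog, Six4, Mef2c and Eya1, out of 21887 protein-coding genes in the annotation. They were chosen by name as known muscle regulators, and peaks were assigned to them by position, inside the gene, up to 10 kb outside it or, more widely, up to 50 kb outside it. The data are ChIP-seq peak lists, which mark where a DNA-binding protein was found on chromatin. The transcription factor Oct1 (gene Pou2f1) was profiled in undifferentiated mouse embryonic stem cells (ESCs) and at day 3 and day 6 of differentiation towards mesoderm, and the related factor Oct4 (gene Pou5f1) in undifferentiated ESCs. All 4 libraries came from cells labelled Parental. Differentiation began on 0.1% gelatin in N2B27 medium with Bmp4 for 2 days and went on for 4 days in DMEM-based medium, with the Wnt agonist Rspo3 and the BMP receptor inhibitor LDN-193189. The 3 input libraries and the knockout and retinoic acid arms of the study were not analysed here.

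Each group had 1 library, so the values below carry no replicate error and no test between groups was possible. The lists held 17709 peaks for Oct1 in ESCs, 22817 for Oct4 in ESCs, 4867 for Oct1 at day 3 and 7758 for Oct1 at day 6. The lists hold no read counts, so the depth behind each peak is unknown (the labels give 100M read pairs as the sequencing of each library), and a peak that is not listed may be a site below the authors' threshold. Peak lists hold no expression values, so whether the cells had the identity their labels give was not checked. The authors gave every peak a whole-number score without a unit. It was used only to rank peaks within a list, where rank 1 is the highest score. The score percentile is the share of that list's peaks with a lower score, with tied peaks placed at the middle of their tie.

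Skeletal muscle of the trunk and limbs arises from somites, which form from presomitic mesoderm. Homeobox proteins of the Six4 family act upstream, with Eya1 and its relatives as coactivators, and the paired-box factors Pax3 and Pax7 mark the muscle progenitors. Commitment and differentiation are then driven by the MyoD family of basic helix-loop-helix factors (Myf5, Myf6, Myod1 and Myog), which bind E-boxes, with Mef2 proteins as partners. Oct1 and Oct4 are POU-domain factors that recognise octamer sequences. Oct4 maintains pluripotency, whereas Oct1 is expressed widely.

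In ESCs, 5 of the 9 genes had an Oct1 peak inside them or up to 10 kb away, namely Pax3, Pax7, Myog, Six4 and Eya1, where 35.2% of all protein-coding genes had one. An Oct4 peak lay as near to 5 of them (Pax3, Pax7, Myod1, Six4 and Eya1), beside 40.2% of all genes. At day 3 there were 2, Pax7 and Six4, where 24.6% of all genes had an Oct1 peak, and at day 6 there were 2, Pax3 and Six4, where 41.5% of all genes had one. With each list shortened to its 4867 highest-scoring peaks, the genes with a peak numbered 3 for ESC Oct1 (16.3% of all genes under the same rule), 1 for ESC Oct4 (14.7%), 2 at day 3 (24.6%) and 1 at day 6 (30.2%). With the higher-scoring 50% of each list they numbered 4 for ESC Oct1 (24.2%), 1 for ESC Oct4 (26.7%), 2 at day 3 (15.0%) and 1 at day 6 (25.0%). Six4 was the gene of the 9 with a peak in all 4 lists, a pattern shared by 9.18% of protein-coding genes. Myf5, Myf6 and Mef2c had no peak within 10 kb in any list, like 36.5% of protein-coding genes.

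**Figure D1:**
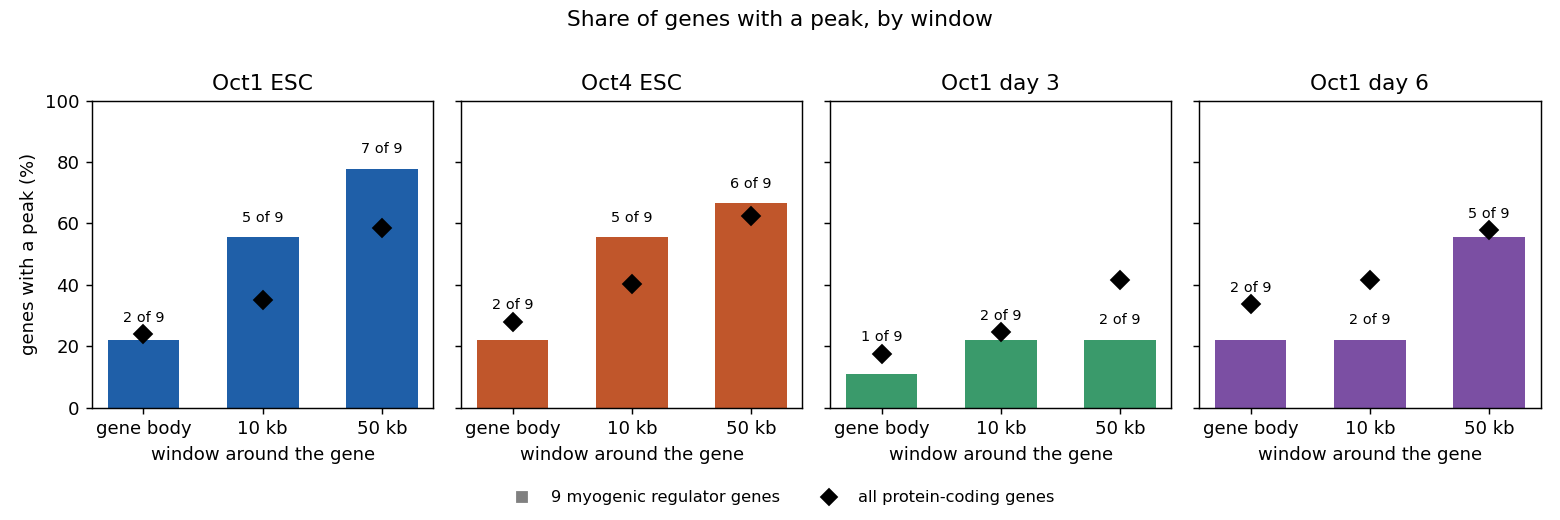
Share of genes (vertical axis, in percent) with a peak in the gene body, up to 10 kb away or up to 50 kb away (horizontal axis), for each of the 4 lists. Bars are the 9 myogenic regulators, with their number above, and diamonds are all 21887 protein-coding genes. At day 3 the bars do not exceed 2 of 9, and at day 6 the number rises from 2 within 10 kb to 5 within 50 kb.

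The regulators differ widely in length, so shares of all genes are also given by length class. Pax3 (95.9 kb), Pax7 (96.5 kb), Eya1 (142 kb) and Mef2c (163 kb) are long, Six4 spans 14.4 kb, and the MyoD family genes measure from 1.88 kb (Myf6) to 4.02 kb (Myf5). Among protein-coding genes of 50 kb or more, 47.1% had an ESC Oct1 peak within 10 kb, 51.7% one of Oct4 in ESCs, 30.4% one at day 3 and 47.9% one at day 6. Among genes of 10 to 50 kb, the class of Six4, these shares were 39.0%, 44.1%, 26.9% and 47.4%, and among genes under 10 kb they were 23.5%, 28.6%, 18.4% and 30.8%. These length classes were chosen after the values had been seen. Of the 4 long regulators, 3 had a peak of each factor in ESCs (Pax3, Pax7 and Eya1), whereas Pax7 alone had one at day 3 and Pax3 alone at day 6.

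Within 10 kb the genes held 7 ESC Oct1 peaks, 11 ESC Oct4 peaks, 4 day 3 peaks and 2 day 6 peaks. Per megabase of these windows this was 10.2, 16.0, 5.81 and 2.90 peaks, against 9.79, 13.1, 3.27 and 5.70 in the windows of all protein-coding genes. The density at the regulators was thus above that of all genes in the ESC Oct4 and day 3 lists, near it in the ESC Oct1 list and below it at day 6. In the windows of 50 kb the densities were 12.8, 22.6, 3.01 and 4.52 peaks per megabase, against 9.25, 12.02, 2.73 and 4.50 for all genes, so there the ESC Oct1 density was higher and the day 6 density was level with that of all genes. These are counts of few peaks. Pax7 alone held 3 of the 7 ESC Oct1 peaks, 6 of the 11 ESC Oct4 peaks and 3 of the 4 day 3 peaks.

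**Figure D2:**
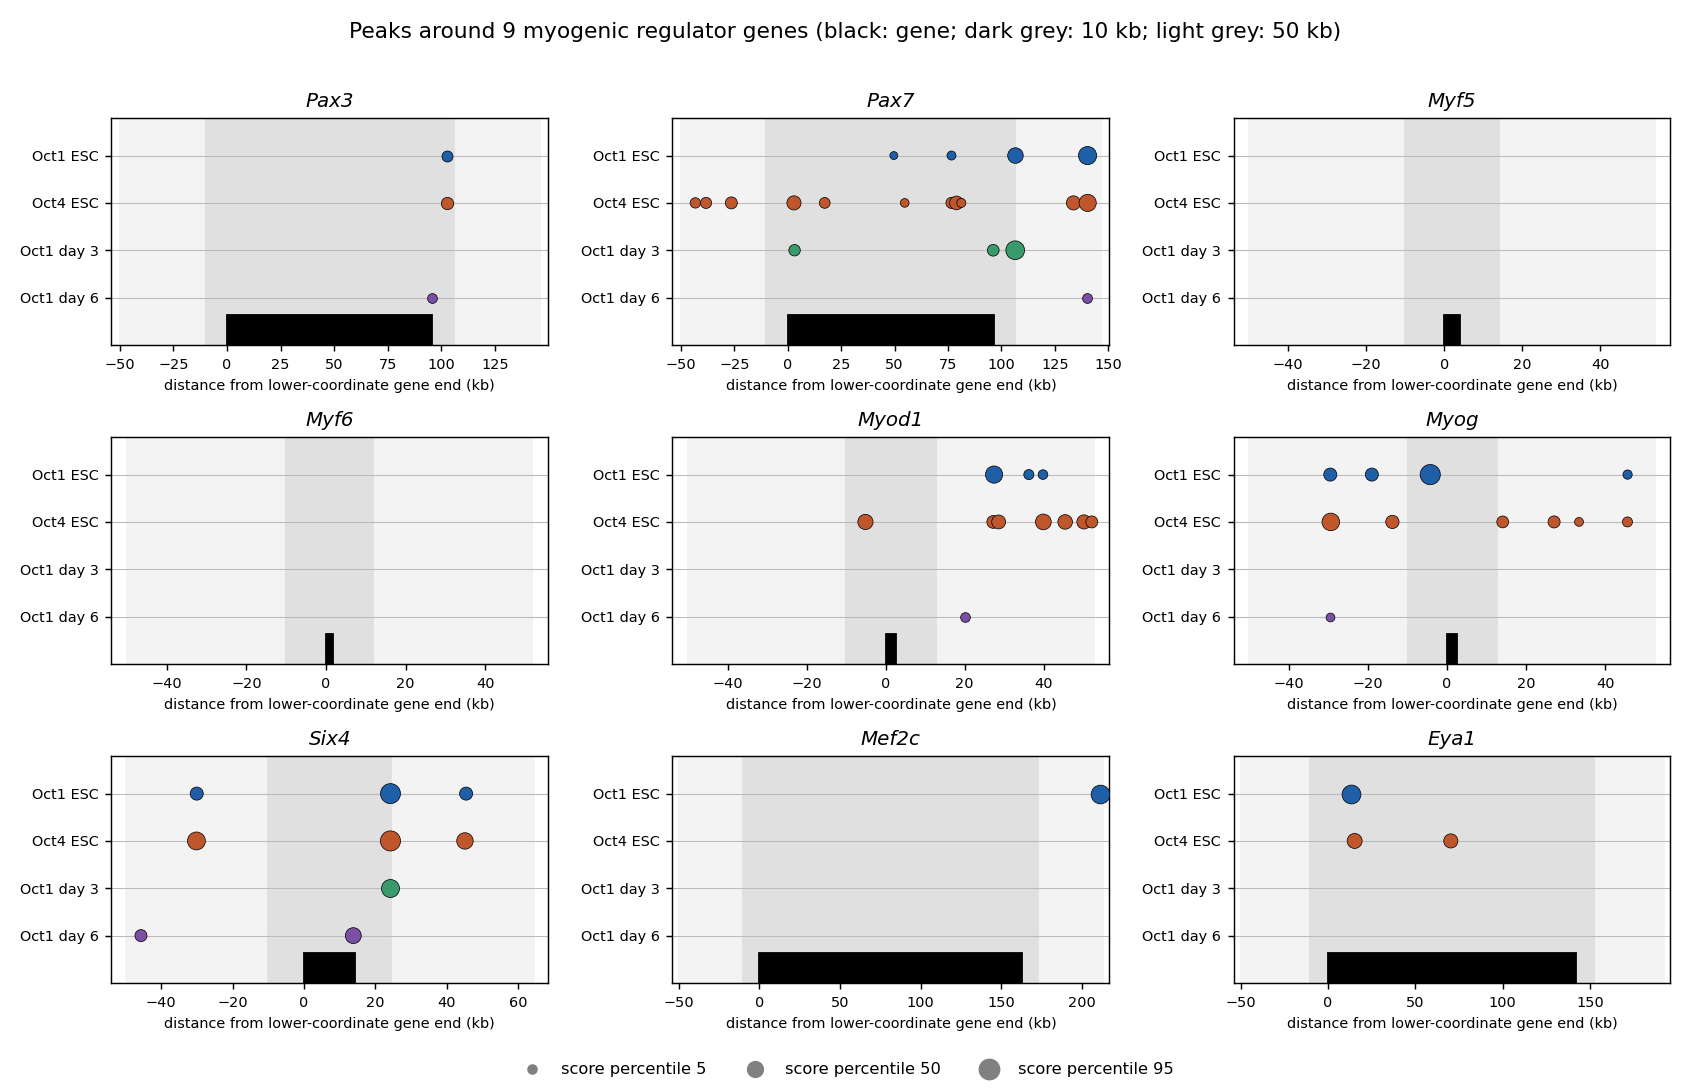
Peaks around each gene, by the distance of the peak midpoint from the gene end with the lower coordinate (horizontal axis, in kb), with 1 line for each of the 4 lists. Black bars are genes, dark and light grey mark the windows of 10 kb and 50 kb, and larger points have higher score percentiles. Pax7 and Myog are surrounded by ESC peaks, Six4 has a peak in every list, and the windows of Myf5 and Myf6 are empty.

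The peaks near the regulators ranged from weak to strong for their lists. The median score percentile of the peaks within 10 kb was 51.1 in the ESC Oct1 list (range 1.15 to 96.8), 36.1 in the ESC Oct4 list (4.59 to 96.3), 47.7 at day 3 (20.3 to 81.5) and 32.1 at day 6 (10.2 to 53.9). Above the middle of their list were 4 of the 7 ESC Oct1 peaks, 2 of the 4 day 3 peaks, 1 of the 2 day 6 peaks and 1 of the 11 Oct4 peaks, the one near Six4. Within 50 kb, peaks among the highest 10% of their list were found at Myog (Oct1 in ESCs) and Six4 (Oct1 and Oct4 in ESCs), and at none of the 9 genes at day 3 or day 6.

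**Figure D3:**
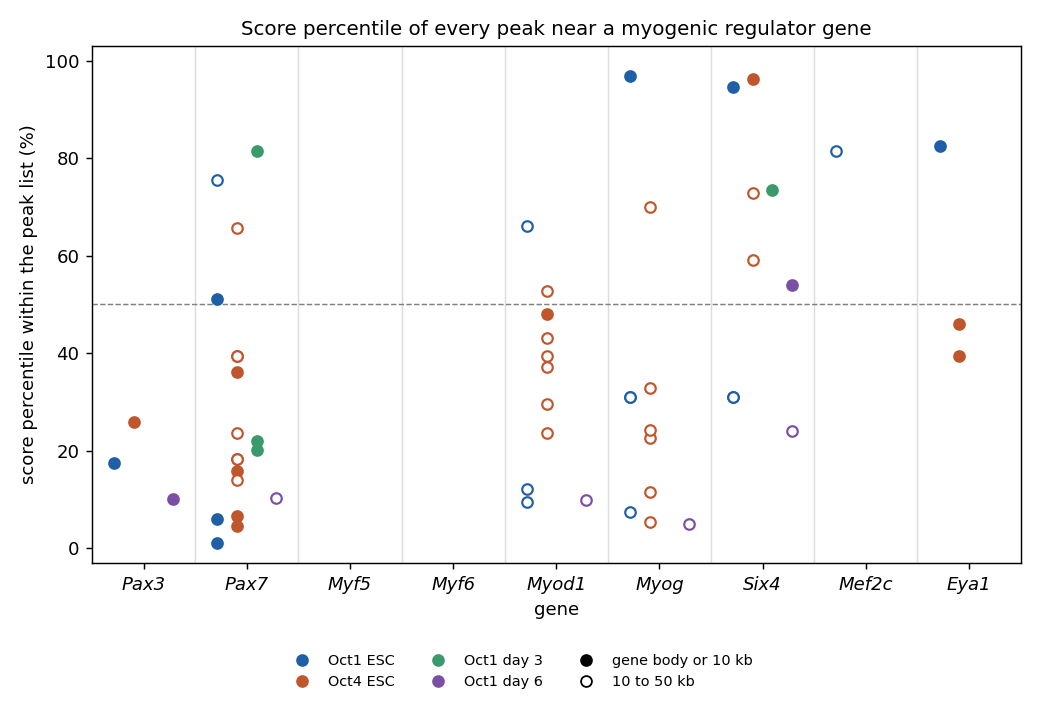
Score percentile within its own list (vertical axis, in percent) of every peak within 50 kb of the genes named on the horizontal axis. Filled points lie in the gene or up to 10 kb outside, open points between 10 and 50 kb, the dashed line marks the middle of each list, and points with tied scores coincide. The ESC peaks near Myog (96.8) and Six4 (94.6 and 96.3) stand highest, and the day 6 points reach 53.9.

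Six4 (gene ID 20474) lies on the minus strand of chromosome 12 at 73099609 to 73114031. A single site upstream of it carried a peak in 3 lists. The ESC Oct1 peak there (chr12:73123521-73124170) had score 469 and ranked 943 of 17709. The ESC Oct4 peak (chr12:73123531-73124140) had score 362 and ranked 827 of 22817. The day 3 Oct1 peak (chr12:73123491-73124130) had score 337 and ranked 1285 of 4867. These 3 peaks lie just inside the 10 kb window, from 9460 to 9500 bp beyond the gene, so a narrower window would leave Six4 without them. The site is also the start of another gene. Each of the 3 peaks contains a listed start of Mnat1 (gene ID 17420) at position 73123717 on the plus strand. Mnat1 encodes a subunit of the kinase complex that activates cyclin-dependent kinases and belongs to TFIIH, and to which gene the peaks relate cannot be told from position.

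At day 6 this site had no listed peak, and an Oct1 peak lay at the Six4 start instead. It spanned chr12:73113131-73113730, had score 555 and ranked 3573 of 7758 (score percentile 53.9), with its midpoint at -5 bp from the nearer of 2 listed starts (negative values are upstream). The peak covered both promoter windows of Six4 whole, a window running from 250 bp before to 50 bp after a start. At day 6, 15.3% of 32851 such windows were covered whole by a peak, against 6.75% at day 3, 2.58% for ESC Oct1 and 1.80% for ESC Oct4. The same peak also lies inside the annotated extent of Mnat1, which begins at 73112185 and overlaps the first part of Six4.

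Wider around Six4, the ESC lists shared a site 29.7 to 29.8 kb beyond the 3′ end (Oct1 score 80, Oct4 score 190) and one 30.4 kb upstream of the gene, inside Mnat1 (Oct1 score 80, Oct4 score 157). All 3 ESC Oct1 peaks within 50 kb of Six4 thus overlapped an Oct4 peak, as did 59.1% of the whole ESC Oct1 list. A second day 6 peak (chr12:73053611-73054250, score 244, rank 5884) lay 45.4 kb beyond the 3′ end of Six4.

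Pax7 (gene ID 18509), whose product maintains muscle progenitors and satellite cells, lies on the minus strand of chromosome 4 at 139737059 to 139833530. It was the gene with the most peaks, at 3 ESC Oct1, 6 ESC Oct4 and 3 day 3 peaks within 10 kb and no day 6 peak there. At day 3 an Oct1 peak covered its listed promoter window (chr4:139832731-139833660, score 97, rank 3793 of 4867). Its midpoint lay at -227 bp from the listed start at 139832968. Neither ESC list nor the day 6 list had a peak in that window, and the nearest lay 10123 bp away (Oct1 in ESCs). The day 3 peak also covered the promoter window of the lncRNA gene Gm46873, which starts nearby on the other strand.

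The strongest peak near Pax7 lay at -10.5 kb from its start, inside Gm46873 and near the edge of the 10 kb window. At day 3 it had score 430 and ranked 895 of 4867 (chr4:139843001-139843970, score percentile 81.5), and in ESCs the overlapping Oct1 peak had score 110 and ranked 8627 of 17709 (chr4:139843341-139843860, score percentile 51.1). No Oct4 peak and no day 6 peak overlapped it. The other ESC Oct1 peaks within 10 kb of Pax7 were among the weakest of their list. One inside the gene, 19.3 kb downstream of the start (score 48, percentile 6.08), overlapped an Oct4 peak (score 93, percentile 18.3), and another 46.3 kb downstream (score 36, percentile 1.15) overlapped none.

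The 6 ESC Oct4 peaks of Pax7 all lay in the gene body, with scores from 64 to 125. One of them, near the 3′ end (score 125, rank 13504 of 22817), overlapped a day 3 Oct1 peak (score 91, rank 3864 of 4867) at a place with no ESC Oct1 peak. Beyond 10 kb, a site 43.0 to 43.4 kb past the gene on its upstream side had a peak in 3 lists and skipped day 3. There the ESC Oct1 peak had score 179 (percentile 75.5), the ESC Oct4 peak score 169 (percentile 65.8) and the day 6 Oct1 peak score 123 (percentile 10.4). With it, Pax7 had a peak within 50 kb in every list.

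The promoter windows that the peaks at Six4, Mnat1 and Pax7 covered or overlapped are given here because these are the starts at which the lists differ. They come from RefSeq on GRCm38.p6, are written 5′ to 3′ on the strand of the gene, and have the 50 bases from the listed start onward in capitals. The Six4 line is the window of the start nearest to the day 6 peak midpoint, the Mnat1 line overlaps the ESC and day 3 peaks by 236 to 276 of its bases, while their midpoints lie past its end, at 93 to 128 bp from the start, and the Pax7 line was covered at day 3.
Six4, chr12:73113376-73113675, minus strand: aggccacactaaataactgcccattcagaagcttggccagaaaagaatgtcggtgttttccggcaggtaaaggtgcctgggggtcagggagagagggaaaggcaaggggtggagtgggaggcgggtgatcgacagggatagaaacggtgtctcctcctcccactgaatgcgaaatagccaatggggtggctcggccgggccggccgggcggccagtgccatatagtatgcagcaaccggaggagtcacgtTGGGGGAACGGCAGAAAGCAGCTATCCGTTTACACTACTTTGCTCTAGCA
Mnat1, chr12:73123467-73123766, plus strand: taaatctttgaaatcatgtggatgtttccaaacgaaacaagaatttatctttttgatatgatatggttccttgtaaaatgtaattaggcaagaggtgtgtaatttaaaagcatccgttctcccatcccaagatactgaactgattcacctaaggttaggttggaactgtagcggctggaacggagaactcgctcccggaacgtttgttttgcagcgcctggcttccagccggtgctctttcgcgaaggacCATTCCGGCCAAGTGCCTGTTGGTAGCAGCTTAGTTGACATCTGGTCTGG
Pax7, chr4:139832919-139833218, minus strand: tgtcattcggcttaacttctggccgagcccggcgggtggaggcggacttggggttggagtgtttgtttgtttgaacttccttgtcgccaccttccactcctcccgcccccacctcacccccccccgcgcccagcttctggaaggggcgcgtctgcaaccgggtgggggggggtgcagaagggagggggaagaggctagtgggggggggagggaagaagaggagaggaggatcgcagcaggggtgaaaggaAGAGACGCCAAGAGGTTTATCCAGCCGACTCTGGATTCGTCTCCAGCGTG

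The table of promoters held 8 windows for 5 of the 9 genes (Pax7, Myf5, Myog, Six4 and Mef2c). They were searched on both strands for the octamer ATGCAAAT, for its first 7 letters ATGCAAA, which every octamer match also holds, and for the E-box CANNTG. Neither ATGCAAAT nor ATGCAAA occurred in any of the 8 windows or in that of Mnat1. Among all windows, 1.74% held ATGCAAAT and 4.63% ATGCAAA, and the share with ATGCAAAT was 9.46% among windows covered whole by an ESC Oct1 peak, 4.42% at day 3 and 1.53% at day 6. The E-box, found in 72.3% of all windows, occurred in 3 of the 8 windows, 2 times in that of Myog and 2 times and 1 time in 2 of the 3 windows of Mef2c. It was absent from the windows of Pax7, Six4 and Myf5, and occurred 3 times in that of Mnat1. G and C made up 63.7% of the Pax7 window, 57.3% of the Six4 window shown and 45.0% of the Mnat1 window. A match says only that the letters are there, and the rest of each peak could not be searched.

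Pax3 (gene ID 18505; chromosome 1, 78101267 to 78197136), required for the progenitors that migrate to the limbs, had 1 peak in each of 3 lists. In ESCs an Oct1 peak (chr1:78203431-78204230, score 64, rank 14533 of 17709) and an Oct4 peak (chr1:78203351-78204210, score 104, rank 16623 of 22817) overlapped each other, 6.30 kb and 6.22 kb beyond the gene end with the higher coordinate. The lncRNA gene Gm33152 ends 380 bp from the ESC Oct1 peak. At day 6 neither was listed, and a peak lay across that higher-coordinate end itself (chr1:78196791-78197320, score 122, rank 6957 of 7758). All 3 peaks were weak for their lists, at score percentiles of 17.4, 25.9 and 10.2. At day 3 the nearest Oct1 peak was 460 kb away, itself one of the strongest of its list at rank 6.

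Both Pax3 and Six4 thus had ESC peaks of Oct1 and Oct4 at one place outside the gene and a day 6 Oct1 peak elsewhere. The day 6 peak lay across the higher-coordinate end of Pax3, and inside Six4 at its start. No strand or start of Pax3 was listed, so whether that end is its start was not determined. None of the 7 ESC Oct1 peaks within 10 kb of the 9 genes overlapped a day 6 peak (6.66% of the whole ESC list did). Within 50 kb, 2 of 17 did (11.8%), so the direction changed with the window. Of the 4 day 3 peaks, 0 overlapped a day 6 peak (58.5% of the whole day 3 list did). With day 3, 2 of the 7 ESC Oct1 peaks overlapped, at Pax7 and Six4 (8.88% of the whole list did). These are few peaks, and the differences from the whole lists were not tested.

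Eya1 (gene ID 14048; chromosome 1, 14168953 to 14311035), a coactivator partner of Six4 and its relatives, had peaks in ESCs only. Within 10 kb, 10.1% of protein-coding genes likewise had peaks in both ESC lists and in neither later list. The Oct1 peak (chr1:14181631-14182150) had score 228 and ranked 3075 of 17709 (score percentile 82.5). The Oct4 peaks had scores of 136 and 125 (chr1:14183961-14184510 and chr1:14239021-14239550), at percentiles of 46.1 and 39.4. All 3 lie inside the gene body, and the Oct1 peak overlapped neither Oct4 peak. Later Oct1 peaks were far away, with the nearest 429 kb from the gene at day 3 and 794 kb at day 6.

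Of the MyoD family, Myog showed the single peak of highest score percentile within 50 kb. Myog (gene ID 17928; chromosome 1, 134290004 to 134292548, plus strand) encodes myogenin, which acts late, in the differentiation of muscle cells. Its ESC Oct1 peak (chr1:134285461-134286060) had score 686 and ranked 558 of 17709, with its midpoint at -4.24 kb from the start. This was the highest score percentile (96.8) of any Oct1 peak within 50 kb of the 9 genes. No Oct4, day 3 or day 6 peak overlapped this Oct1 peak. The peak is 2535 bp from Myoparr, a lncRNA gene next to Myog, and 4470 bp from Gm24517, annotated as an snRNA gene. Small nuclear RNA genes are a known class of Oct1 targets, but the peak touches neither gene.

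The other peaks within 50 kb of Myog lay beyond 10 kb and all had lower score percentiles. Between 10 and 50 kb there were 3 ESC Oct1 peaks (scores 52 to 80) and 6 ESC Oct4 peaks (scores 65 to 180), the nearest Oct4 peak just outside the 10 kb window at 10973 bp. Of these, 1 of the Oct1 peaks and 4 of the Oct4 peaks overlap the neighbouring gene Ppfia4. One site 29.0 to 29.2 kb upstream had a peak of Oct1 in ESCs (score 80, percentile 31.1), Oct4 in ESCs (score 180, percentile 69.9) and Oct1 at day 6 (score 86, percentile 5.07). Like the distal site of Pax7, it had no day 3 peak. The nearest day 3 peak was 109 kb from the gene.

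Myod1 (gene ID 17927; chromosome 7, 46376474 to 46379092), which can turn fibroblasts into muscle cells, had 1 peak within 10 kb. It was an ESC Oct4 peak (chr7:46371011-46371670, score 137, rank 11735 of 22817) at 4804 bp from the gene, overlapping the lncRNA gene Gm45923 and no Oct1 peak. Between 10 and 50 kb lay 3 ESC Oct1 peaks (scores 53 to 144), 6 more ESC Oct4 peaks (scores 101 to 147) and 1 day 6 peak (score 119), all of which overlap Kcnc1, the neighbouring potassium channel gene. The day 6 peak lies 17.1 kb from Myod1 and reaches across the end of Kcnc1 that faces it. The nearest day 3 peak was just outside the wider window, at 54.5 kb, and was strong (score 1985, rank 107 of 4867).

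Myf5 (gene ID 17877) and Myf6 (gene ID 17878), the earliest of the family to be expressed in the somite and its neighbour, sit side by side on chromosome 10, at 107482908 to 107486927 and 107492848 to 107494723. Their windows overlap, so they are 1 place in the densities, although they are 2 of the 9 genes in the counts and shares. No list had a peak within 50 kb of either. The nearest peak of any list was an ESC Oct4 peak 600 kb from Myf6, and 4.06% of protein-coding genes were as far or farther from every peak. The nearest Oct1 peaks to Myf6 lay at 952 kb in ESCs, at 667 kb at day 3 and at 667 kb at day 6.

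Mef2c (gene ID 17260; chromosome 13, 83504017 to 83667079), a MADS-box factor that works with the MyoD family in muscle and also acts in heart, had no peak in its body or within 10 kb in any list. An ESC Oct1 peak lay 47.9 kb beyond its 3′ end (chr13:83714951-83715450, score 217, rank 3200 of 17709), inside the wider window and within the lncRNA gene Gm52046. The nearest day 3 and day 6 peaks were 60.0 kb and 62.3 kb away, outside it, and the nearest Oct4 peak was 180 kb away. The day 3 peak was a strong one, with score 943 and rank 250 of 4867.

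Counted within 50 kb, 7 of the 9 genes had an Oct1 peak in ESCs (58.7% of all genes), 2 at day 3 (41.5%) and 5 at day 6 (57.9%), and 6 had an Oct4 peak in ESCs (62.5%). The genes that the wider window added at day 6 were Pax7, Myod1 and Myog, while Six4 gained a second peak, and these 4 added peaks had score percentiles from 5.07 to 24.1. In the gene body alone, 2 of the 9 genes had an Oct1 peak in ESCs (23.9% of all genes), 1 at day 3 (17.7%) and 2 at day 6 (33.6%), and 2 had an Oct4 peak in ESCs (28.0%). Merged over the lists, the windows of 10 kb held 18 separate sites, 13 of them in 1 list, and those of 50 kb held 42 sites, 30 of them in 1 list. Over the whole lists, 62.6% of 37115 merged sites were in 1 list. With the wider window, 3 sites were present in 3 lists, near Six4, Pax7 and Myog, and none in all 4. The share of all merged sites in 3 or 4 lists was not computed.

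The sharing of ESC sites between Oct1 and Oct4 was as follows. Of the 7 ESC Oct1 peaks within 10 kb, 3 overlapped an Oct4 peak (at Pax3, Pax7 and Six4), or 42.9%, and 3 of the 11 Oct4 peaks overlapped an Oct1 peak, or 27.3%. Over the whole lists the shares were 59.1% and 46.0%. Within 50 kb they were 10 of 17 Oct1 peaks (58.8%) and 10 of 30 Oct4 peaks (33.3%). The difference from the whole lists was not tested.

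For the 4 regulators with a peak within 10 kb in 2 or more lists, the genes with the most similar pattern were sought among those with a peak within 10 kb in the same lists, by the Euclidean distance between the score percentiles of their highest peaks. For Six4, over 4 lists and 2009 candidates, they were Mnat1 (0 percentile points, since it shares the peaks), Tnrc18 (4.07) and Pdzd7 (4.45). For Eya1, over 2 lists and 2208 candidates, they were Cdk14 (1.09), Blk (1.84) and Srgap1 (2.00). For Pax3, over 3 lists and 1559 candidates, they were Morn5 (6.76), Vps53 (9.84) and Cd276 (10.5). For Pax7, over 3 lists and 550 candidates, the nearest gene, Olfr550, was 24.9 percentile points away, followed by H1f6 and H4c3 at 26.3 each, so no gene came close to it.

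Other muscle genes were examined in the same way, with names fixed as lists. The shares of all genes to set beside their counts within 10 kb are 35.2% for ESC Oct1, 24.6% at day 3, 41.5% at day 6 and 40.2% for ESC Oct4. Of 18 paralogues of the regulators (genes of the same families, such as Six2, Eya2, Mef2a and Pax6), 8 had an Oct1 peak within 10 kb in ESCs (44.4%), 8 at day 3 (44.4%) and 12 at day 6 (66.7%), and 11 had an Oct4 peak in ESCs (61.1%). At day 6 these included Six5 (score 1834, rank 377 of 7758) and Six2 (score 1368, rank 849). Pax6, the paired-box gene of eye and forebrain, had an Oct1 peak of high rank in ESCs (score 1232, rank 276, percentile 98.4) and at day 3 (score 2120, rank 98, percentile 98.0). Its day 6 peak was of lower rank (score 791, rank 2385, percentile 69.3). The best Oct1 ranks of Pax7 within 10 kb were 8627 in ESCs (percentile 51.1) and 895 at day 3 (percentile 81.5). Those of Pax3 were 14533 in ESCs (percentile 17.4) and 6957 at day 6 (percentile 10.2). Ranks from lists of unlike length are compared by percentile.

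Of 14 other regulators of muscle progenitors, 1 had an Oct1 peak in ESCs, or 7.14% against 35.2% of all genes (Lbx1, a homeobox gene of migrating limb muscle precursors), and 2 had an Oct4 peak in ESCs, or 14.3% against 40.2% (Lbx1 and Meox1). At day 3 there were 3 (21.4% against 24.6%) and at day 6 there were 6 (42.9% against 41.5%), both near the share of all genes. The day 6 peaks included those at Pitx3 (score 690, rank 2869) and Dmrt2 (score 271, rank 5670). Of 12 partners and inhibitors of the MyoD family, 5 had an Oct1 peak in ESCs (41.7% against 35.2% of all genes), 4 at day 3 (33.3% against 24.6%) and 8 at day 6 (66.7% against 41.5%), and 6 had an Oct4 peak in ESCs (50% against 40.2%). In the gene body alone the ESC shares were below those of all genes, with 2 for Oct1 (16.7% against 23.9%) and 2 for Oct4 (16.7% against 28.0%). The body counts were 2 at day 3 (16.7% against 17.7%) and 7 at day 6 (58.3% against 33.6%). Among the 12 genes Tcf3, which encodes the E proteins that pair with MyoD, had its highest day 6 peak 9471 bp outside the gene, near the edge of the window (score 1690, rank 481), and the day 6 peak inside the gene had score 486 (rank 4030). Id3, which encodes an inhibitor of E proteins, had a day 6 peak of score 821 (rank 2272) in the gene.

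Of 20 genes of muscle differentiation, 10 had an Oct1 peak in ESCs (50% against 35.2% of all genes), 5 at day 3 (25.0% against 24.6%, about the same share) and 9 at day 6 (45.0% against 41.5%), and 12 had an Oct4 peak in ESCs (60.0% against 40.2%). In the gene body alone the day 6 share was below that of all genes (4 genes, 20% against 33.6%). The body shares in the other lists were 40% against 23.9% (ESC Oct1), 20% against 17.7% (day 3) and 40% against 28.0% (ESC Oct4). Myh3, the embryonic myosin heavy chain gene, had a peak of high rank in all 4 lists. In ESCs it ranked 189 for Oct1 (score 1736, percentile 98.9) and 409 for Oct4 (score 445, percentile 98.2). Its Oct1 peak ranked 361 at day 3 (score 746, percentile 92.6) and 93 at day 6 (score 2998, percentile 98.8). Mylpf, a fast myosin light chain gene, ranked 727 at day 3 (percentile 85.1) and 138 at day 6 (score 2601, percentile 98.2). At day 6 the share of the 9 regulators with a peak was 22.2%. These lists are small and no test was made between them.

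**Figure D4:**
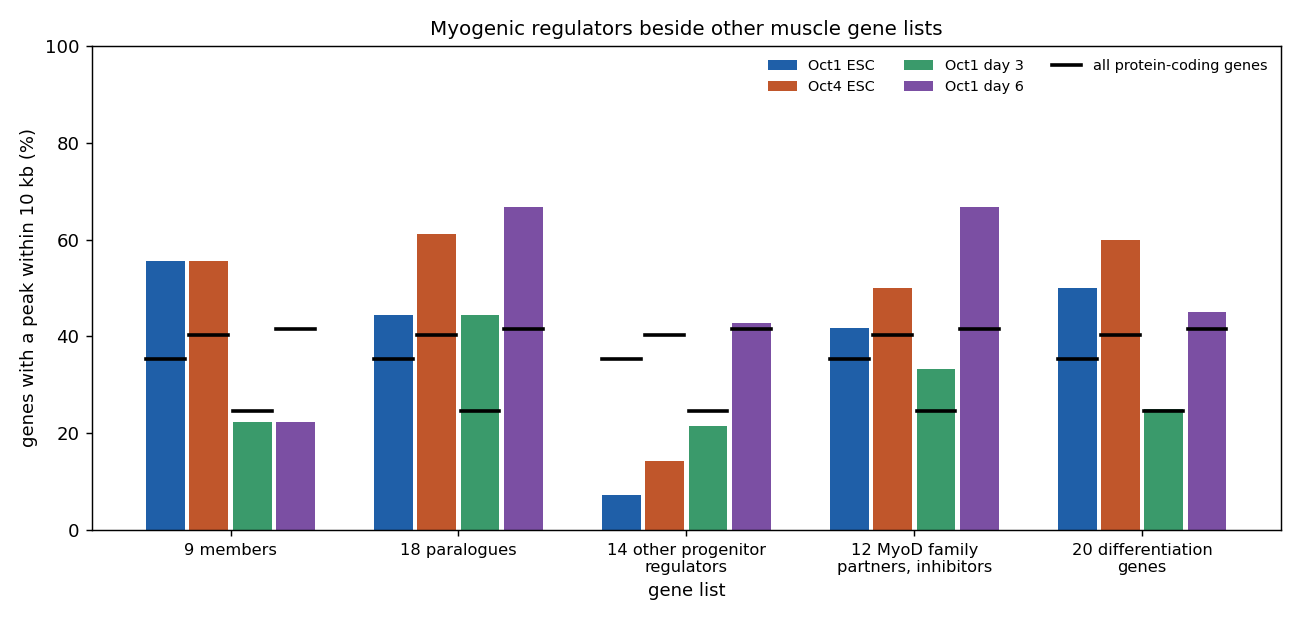
Share of genes with a peak within 10 kb (vertical axis, in percent) for the 9 regulators and the other muscle gene lists (horizontal axis), with 1 bar for each of the 4 peak lists and a black line at the share of all protein-coding genes in that list. In this window the regulators stand above the line in both ESC lists and at 22.2% against 41.5% at day 6, whereas in the gene body they are below it in both ESC lists and within 50 kb at 55.6% against 57.9% at day 6.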

How the data were processed

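Chromatin had been crosslinked with 1% formaldehyde and sequenced as paired reads of 50 bp, per the labels' protocols. The submitters' processing notes name Novoalign 3.8.2 and the build mm10, which is GRCm38. The peak caller, its threshold and its control are not given in the sources used here. The deposited lists held 5 columns (chromosome, start, end, name and a score per peak without a unit), 1 list per library. Starts were converted to 1-based positions. Genes, promoter windows and strands came from RefSeq tables of GRCm38.p6, and all 9 symbols matched. A peak counted when at least 1 bp lay in the window, and lists shared a site when peaks overlapped by at least 1 bp. Distances are differences between the nearest ends.

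Counts were made in Python 3.11.15 (numpy 2.4.6, pandas 2.3.3) and were tested on simulated data. For the 9 genes they matched those from bedtools 2.31.1 for each list in the windows of 10 kb and 50 kb. Figures used matplotlib 3.10.9. Named beside the 9 genes were, for each other gene list and peak list, at most 5 genes by rank, and the 3 most alike genes. Genes and lists were chosen with earlier results of these data known.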

Additional observations from a re-analysis of the deposited data

How the results depend on the processing

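In all, 12 counts were recomputed with other windows, thresholds and overlap rules, giving 56 values, of which 30 stayed within 1.5 times of the count reported. Some of the 30 could not have changed. A count of 0 overlaps stays 0 under a stricter overlap rule or with shorter lists. The day 3 list, at 4867 peaks, was itself the shortest, so its own counts stayed the same at equal length. With the gene body alone, the genes with a peak numbered 2 for ESC Oct1, 2 for ESC Oct4 and 1 at day 3, with 3 ESC Oct1 and 2 day 3 peaks. Within 50 kb there were 17 ESC Oct1, 30 ESC Oct4 and 6 day 6 peaks, 5 genes with a day 6 peak, 10 ESC Oct1 peaks shared with Oct4 and 2 shared with day 6. With the higher-scoring 50% of each list, the windows held 4 Oct1 peaks and 1 Oct4 peak of ESCs, 2 of day 3 and 1 of day 6, at 1 gene each for Oct4 and day 6, and 1 ESC Oct1 peak overlapped an Oct4 peak. With every list shortened to 4867 peaks, 3 ESC Oct1 peaks at 3 genes, 1 Oct4 peak at 1 gene and 1 day 6 peak at 1 gene were left, with 1 ESC Oct1 peak shared with Oct4 and 1 with day 3. Under these rules the share of all genes with a peak was 24.2%, 26.7%, 15.0% and 25.0% for the higher-scoring 50% and 16.3%, 14.7%, 24.6% and 30.2% for lists of equal length (in the order ESC Oct1, ESC Oct4, day 3 and day 6, added after the values had been seen). These changes follow from fewer peaks or other windows. Using peak midpoints, or asking each peak to cover 50% of the other, moved no count by over 1.5 times. The lists hold no read counts, so the depth behind a peak is unknown, and with 1 library per group no replicate could be left out. No paired analysis was possible because each group held 1 library.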
